A study of Mus musculus with 22 samples.

Results

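The genes described here carry the signal that makes a pancreatic acinar cell release its digestive enzymes. They are the receptors for cholecystokinin (Cckar), acetylcholine (Chrm1 and Chrm3), secretin (Sctr) and vasoactive intestinal peptide (Vipr1), the IP3 receptors Itpr1, Itpr2 and Itpr3, and Stim1 and Orai1 of the store-operated calcium entry. The members were the probes whose symbol is one of these names, which gave 15 probes of 10 genes among the 30146 probes and 21450 symbols of the table. They were read in 22 whole-pancreas libraries by TempO-Seq, which ligates a pair of detector oligonucleotides where both anneal to a transcript and counts the products by sequencing. The genes had been selected on earlier results from these same counts.

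All mice were C57Bl/6. Dams had been injected under the skin 2 times per week with TCDD, a dioxin and ligand of the aryl hydrocarbon receptor (AhR), at a dose of 20 ng/kg per day, or with corn oil as the control, from before mating to the end of pregnancy. The pancreas was taken on the day of birth from the dam and from 1 male and 1 female pup of a litter, and pups were exposed only through the dam. The labels give 4 TCDD dams, 4 TCDD female pups and 4 TCDD male pups, against 4 control dams, 3 control female pups and 3 control male pups, each from a separate animal.

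In an acinar cell, cholecystokinin and acetylcholine act on receptors coupled to Gq, phospholipase C then forms IP3, and IP3 receptors release calcium from the endoplasmic reticulum, which drives the exocytosis of zymogen granules. STIM1 senses the emptied store and opens ORAI1 in the plasma membrane, which refills it. Secretin and vasoactive intestinal peptide act on receptors coupled to Gs and cyclic AMP, which are best known in the pancreas for the secretion of fluid and bicarbonate by duct cells.

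The libraries are described in 2 classes because their stage labels conflict with stage genes. A library was called adult type where the summed count of Pnlip, the pancreatic lipase of the mature acinar cell, exceeded that of Afp, an alpha-fetoprotein gene of fetal and newborn tissue, and newborn type otherwise. The 8 adult-type libraries had 621930 to 936845 Pnlip counts and 0 to 21 Afp counts, whereas the 14 newborn-type libraries had 255 to 1546 Pnlip counts and 5681 to 29569 Afp counts. The libraries nearest the boundary were the TCDD dam of litter 11, with 755684 Pnlip and 21 Afp counts, and the newborn-type TCDD female pup of litter 10, with 1546 Pnlip and 12824 Afp counts. The adult type held 4 libraries labelled dam and 4 labelled pup, and the newborn type held 4 labelled dam and 10 labelled pup, so that 8 libraries went against their stage label. Of the adult-type libraries 6 were labelled TCDD and 2 control, against 6 labelled TCDD and 8 labelled control in the newborn type. The labelled dams were 4 TCDD and 4 control. If the adult-type libraries are the dams, some chemical labels are therefore wrong as well, which was not tested. Libraries are named by their labels and by the number in the label, taken here as the litter. Since the classes were read from measured counts, differences between them are descriptions without a test.

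Totals were 14068304 to 19148777 counts in the adult type and 11223816 to 34911410 in the newborn type. Digestive enzyme probes took 74.5 to 78.9% of the counts in the adult type and 46.8 to 56.7% in the newborn type, which leaves fewer counts for every other transcript and makes the scaling matter. Levels are given as CPM (counts scaled to a common library total) after TMM scaling, which sets the libraries to a common level over most probes. On this scale the median of the 16760 probes that passed the low-count filter differed by -0.15 on the log2 scale, adult minus newborn type. It differed by -1.88 with CPM of the library total, by -0.20 with RLE size factors and by -0.84 with CPM of the total without digestive enzymes. Differences are therefore also given relative to this median. Of all probes, 8.85% had every adult-type library above every newborn-type library and 11.5% had every one below. These shares were 0.406% and 68.0% with CPM of the library total, 7.99% and 12.4% with RLE factors, and 2.15% and 28.8% without digestive enzymes. A probe reads a short stretch of a transcript with its own efficiency, so levels are compared between libraries and not between genes.

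The RefSeq promoter table of GRCm38.p6, with 250 bases before and 50 bases after the start of a gene, held 6 of the 10 genes: Chrm3, Vipr1, Itpr2, Itpr3, Stim1 and Orai1. Those of Itpr2, Itpr3 and Chrm3 are shown because AhR, the receptor that TCDD activates, binds DNA at the core GCGTG. Capitals mark this core on either strand, where the other strand reads CACGC.
Itpr2, chr6:146502174-146502473, minus strand: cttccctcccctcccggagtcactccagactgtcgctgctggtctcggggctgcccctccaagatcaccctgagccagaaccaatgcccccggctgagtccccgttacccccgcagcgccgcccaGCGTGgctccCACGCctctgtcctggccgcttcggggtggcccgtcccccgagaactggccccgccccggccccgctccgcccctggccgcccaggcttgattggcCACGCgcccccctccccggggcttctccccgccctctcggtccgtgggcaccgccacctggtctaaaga
Itpr3, chr17:27057054-27057353, plus strand: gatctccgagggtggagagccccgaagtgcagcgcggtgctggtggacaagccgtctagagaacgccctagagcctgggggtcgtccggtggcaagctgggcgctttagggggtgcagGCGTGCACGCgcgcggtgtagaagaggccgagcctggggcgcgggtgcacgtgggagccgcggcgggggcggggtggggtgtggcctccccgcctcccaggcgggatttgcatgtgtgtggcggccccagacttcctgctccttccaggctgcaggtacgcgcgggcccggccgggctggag
Chrm3, chr13:10360754-10361053, minus strand: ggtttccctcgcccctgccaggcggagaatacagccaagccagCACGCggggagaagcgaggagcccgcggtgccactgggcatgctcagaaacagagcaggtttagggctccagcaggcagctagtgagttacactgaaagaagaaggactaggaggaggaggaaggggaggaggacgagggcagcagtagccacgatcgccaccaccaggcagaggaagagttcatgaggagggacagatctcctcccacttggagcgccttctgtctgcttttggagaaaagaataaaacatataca
The core occurred 3 times in the window of Itpr2, 2 times in those of Itpr3 and Orai1, and 1 time in those of Chrm3, Vipr1 and Stim1. It was present in 32.4% of the 32851 promoters of the table and in 65.05% of the 2804 promoters with a GC content of 70 to 80%. The GC content was 57.3% for Chrm3 and 70.3 to 78.7% for the other 5. None of the 6 windows held the RBPJ-type motif TTTCCCA, the NR5A2-type motif CAAGGTCA or the cyclic AMP response element TGACGTCA, which were in 8.06%, 1.56% and 1.79% of all promoters. An E-box, CANNTG, was in 5 of the 6, all but Vipr1, and in 72.3% of all promoters, and no E-box overlapped a GCGTG core. These matches describe letters and are no evidence of binding.

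Of the 15 member probes 11 passed the low-count filter, and these stood for 9 of the 10 genes. Cckar and Itpr2 were higher in every adult-type library than in any newborn-type library, while 7 genes overlapped between the classes and no gene lay below without overlap. By probe, 3 of 11 lay above, 0 below and 8 overlapped, where 8.85% of all probes lay above and 11.5% below. The members had been selected on these same counts, so nothing is read from that difference. The median log2 difference was 0.11 over the 9 genes and -0.15 over all probes. With CPM of the library total all 9 genes had a negative difference, none lay above and 5 lay below, where 68.0% of all probes lay below. Relative to the median of all probes, each of the 9 kept its sign under all 4 scalings. In whole tissue, fewer cells of a type and less RNA per cell cannot be told apart.

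**Figure D1:**
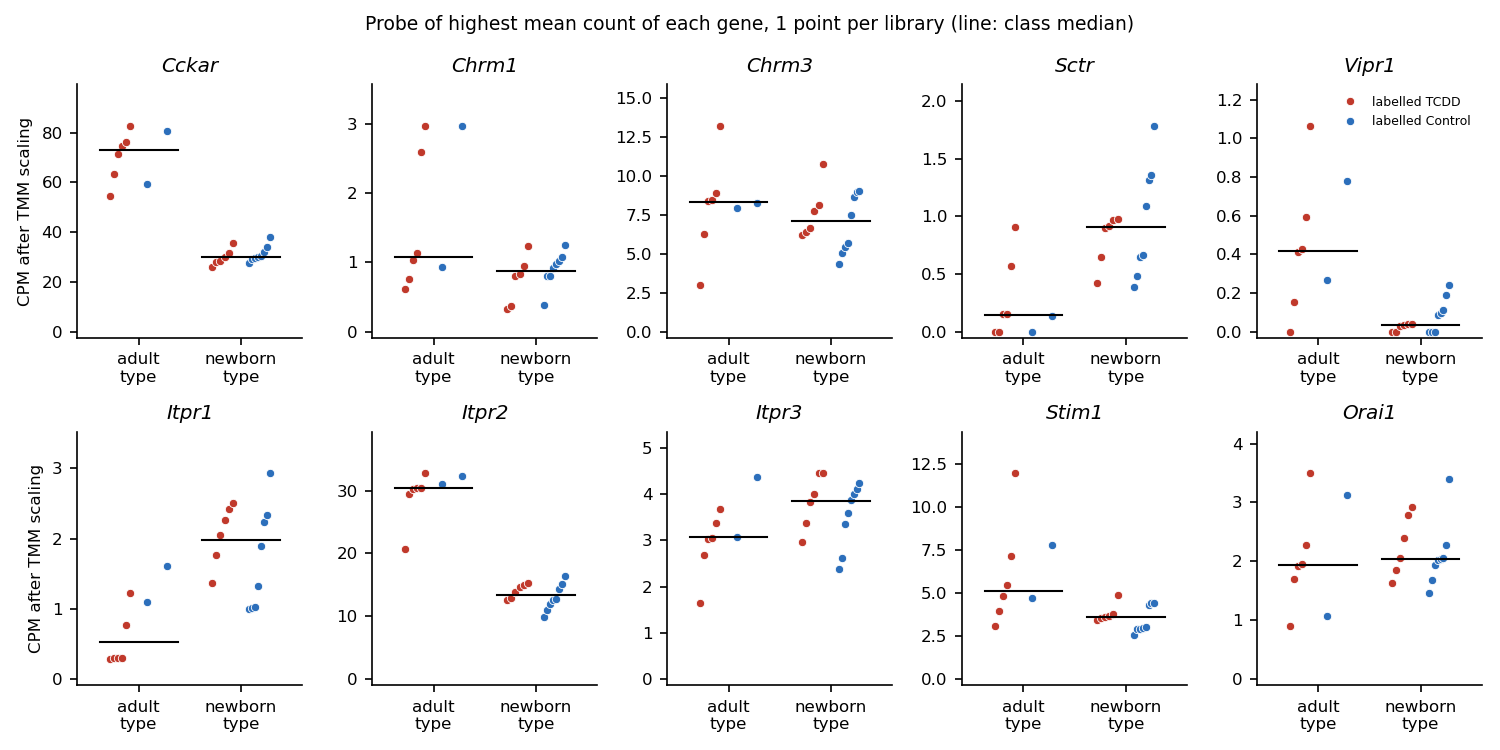
CPM after TMM scaling of the probe with the highest mean count of each of the 10 genes, 1 point per library, in adult-type (n = 8) and newborn-type (n = 14) libraries, coloured by the chemical label, with the class median as a line. The classes are apart for Cckar (54.7 to 82.8 against 26.1 to 38.2 CPM) and Itpr2 (20.7 to 32.9 against 9.88 to 16.3 CPM), on this scale, and overlap for the others.

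Cckar, the receptor through which cholecystokinin stimulates enzyme secretion, had a lowest, median and highest level of 54.7, 73.0 and 82.8 CPM in adult-type libraries, against 26.1, 30.04 and 38.2 CPM in newborn-type libraries. The 2 ranges did not overlap, with the TCDD female pup of litter 6 lowest in the adult type and the control dam of litter 4 highest in the newborn type. The means were 70.4 ± 10.2 CPM (SD, n = 8) and 30.8 ± 3.33 CPM (SD, n = 14), a 2.29-fold ratio and a log2 difference of 1.18, or 1.33 relative to the median. That placed Cckar at percentile 94.7 of all probes. The direction depended on the scaling: every adult-type library was also above with RLE size factors (1.13) and without digestive enzymes in the total (0.45), but with CPM of the library total every adult-type library was below (-0.70, or 1.18 relative to the median). The level varied by 14.5% (coefficient of variation) among adult-type and 10.8% among newborn-type libraries, where counting alone would give 4.48% and 3.498%.

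Set against acinar transcripts of the same library, which needs no scaling, Cckar was not high in the adult type. For every 10000 counts of Cpa1, a carboxypeptidase secreted by acinar cells, there were 7.08 to 9.78 Cckar counts in adult-type libraries (median 8.36) and 18.8 to 29.4 in newborn-type libraries (median 25.6), without overlap. Per 100 counts of Bhlha15, a transcription factor of the secretory acinar cell, there were 167 to 434 Cckar counts in the adult type and 329 to 970 in the newborn type, and 6 of the 8 adult-type libraries lay below the newborn-type range. Per 100 counts of Ptf1a, a transcription factor that maintains acinar identity, the classes overlapped, at 136 to 205 (median 188) and 130 to 329 (median 196). All 8 adult-type libraries lay inside the newborn-type range, which reached higher. The 12 acinar markers summed to 219923 to 349795 CPM in the adult type and 51513 to 97901 CPM in the newborn type. The part of acinar content in the Cckar difference was not tested.

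Chrm3, the main muscarinic receptor of the acinar cell, overlapped between the classes. Its lowest, median and highest levels were 2.98, 8.33 and 13.2 CPM in the adult type and 4.32, 7.08 and 10.8 CPM in the newborn type, with the TCDD male pup of litter 8 at the bottom and the TCDD female pup of litter 6 at the top. Its log2 difference was 0.11, or 0.26 relative to the median, and turned negative with CPM of the library total (-1.74) and without digestive enzymes (-0.61). Per 100 Cckar counts of the same library there were 3.60 to 24.2 Chrm3 counts in the adult type (median 11.2) and 14.4 to 38.1 in the newborn type (median 23.1). All adult-type libraries except the TCDD female pup of litter 6 lay below the newborn-type range in this ratio. Nerve and Schwann cell markers, of cells that supply acetylcholine or surround the nerve fibres, summed to 0.134 to 1.97 CPM in the adult type and 3.51 to 28.5 CPM in the newborn type, and 4 of the 8 passed the filter. Smooth muscle and pericyte markers, of cells that also carry muscarinic receptors, summed to 14.8 to 32.9 CPM and 46.6 to 93.9 CPM, and their part in the levels of Chrm3 was not tested.

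Chrm1, a second muscarinic receptor found on acinar cells, was near the detection limit, with 5 to 20 counts per adult-type library and 8 to 53 per newborn-type library. Its lowest, median and highest levels were 0.614, 1.08 and 2.97 CPM in the adult type and 0.321, 0.870 and 1.24 CPM in the newborn type. The adult-type libraries of the TCDD dam of litter 8, the TCDD male pup of litter 10 and the control dam of litter 5 lay at 2.59, 2.97 and 2.97 CPM, above the newborn-type range, and the other 5 lay within it. The log2 difference was 0.74, or 0.89 relative to the median, and was -0.92 with CPM of the library total.

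Sctr, the secretin receptor, went the other way. The 8 adult-type libraries held 13 Sctr counts in all, 0 to 6 each with 3 libraries at 0, while the 14 newborn-type libraries held 8 to 58 each. The lowest, median and highest levels were 0, 0.141 and 0.907 CPM in the adult type and 0.388, 0.907 and 1.79 CPM in the newborn type. Of the 13 counts, 6 came from the TCDD dam of litter 11 and 4 from the TCDD male pup of litter 8, and the other 6 adult-type libraries lay below every newborn-type library. Those same 2 libraries had counts at 22786 and 22871 probes, against 17614 to 19072 probes in the other 6 of their class and 21498 to 26420 in the newborn type; the part of this in the Sctr counts was not tested. The log2 difference was -1.95, or -1.80 relative to the median, and was negative under all 4 scalings. Its size rests on libraries at 0 and so on the prior count, and was -2.80 with a prior count of 0.5. Without those 2 libraries it was -2.54 with no overlap, an alternative chosen after the data were seen. A count of 3, the limit that a count of 0 allows, corresponds to 0.307 to 0.469 CPM in an adult-type library, so levels near the low end of the newborn-type range could not be told from 0 there. The 9 duct markers summed to 44.6 to 75.3 CPM in the adult type and 158 to 218 CPM in the newborn type, where 3 of the 8 that passed the filter lay below without overlap, 1, Muc1, lay above and 4 overlapped. The part of duct content in the Sctr difference was not tested.

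Vipr1, a receptor for vasoactive intestinal peptide, did not pass the filter. It had 26 counts over the 8 adult-type libraries, 0 to 7 each with 1 library at 0, and 19 counts over the 14 newborn-type libraries, 0 to 5 each with 5 libraries at 0. The median level was 0.417 CPM in the adult type and 0.0351 CPM in the newborn type, and the ranges of 0 to 1.07 and 0 to 0.243 CPM overlapped. Most of these counts lie at or under 3, so no ratio is given.

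Itpr2, the IP3 receptor that with ITPR3 releases calcium at the apical pole of the acinar cell, was higher in the adult type by each of its 3 probes. The most abundant probe had a lowest, median and highest level of 20.7, 30.4 and 32.9 CPM in adult-type libraries, against 9.88, 13.4 and 16.3 CPM in newborn-type libraries. The ranges did not overlap; the TCDD dam of litter 11 was lowest in the adult type and the control female pup of litter 4 highest in the newborn type. The means were 29.7 ± 3.80 CPM (SD, n = 8) and 13.4 ± 1.80 CPM (SD, n = 14), a 2.21-fold ratio and a log2 difference of 1.14, or 1.29 relative to the median, at percentile 94.2 of all probes. The 2 other probes gave 1.10 without overlap, at 13.1 to 28.5 and 8.35 to 11.8 CPM, and 1.05 with overlap, at 1.32 to 7.58 and 0.815 to 2.55 CPM. With CPM of the library total the difference of the most abundant probe was -0.74 and the classes overlapped, as they did without digestive enzymes in the total (0.41). With its 3 probes summed, Itpr2 had 59.2 to 119.9 counts per 100 Cckar counts in the adult type. The newborn type had 63.1 to 97.5, so this ratio overlapped while both genes lay higher after TMM scaling.

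Itpr3, the other apical IP3 receptor of the acinar cell, overlapped between the classes. Its lowest, median and highest levels were 1.64, 3.06 and 4.37 CPM in the adult type, where the TCDD female pup of litter 6 was lowest, and 2.37, 3.85 and 4.46 CPM in the newborn type. The log2 difference was -0.25, or -0.10 relative to the median, and was negative under all 4 scalings, although in the 14 libraries whose class matches the stage label it was 0.037 relative to the median. Itpr1, the IP3 receptor best known from neurons and smooth muscle, had 2 to 12 counts per adult-type library and 21 to 82 per newborn-type library by its most abundant probe. Its lowest, median and highest levels were 0.284, 0.532 and 1.61 CPM in the adult type and 0.992, 1.97 and 2.94 CPM in the newborn type, and 5 of the 8 adult-type libraries lay below every newborn-type library. The log2 difference was -1.41, or -1.26 relative to the median, and was negative under all 4 scalings. The 2 other Itpr1 probes did not pass the filter and had at most 9 counts in a library.

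Among the IP3 receptor counts of a library, which need no scaling, the composition differed between the classes. With all probes of a gene summed, Itpr2 made 91.4 to 95.3% of these counts in adult-type libraries (median 93.1%). In newborn-type libraries it made 76.9 to 87.3% (median 81.3%), without overlap. Itpr3 made 2.35 to 6.97% (median 5.75%) in the adult type and 8.60 to 15.6% (median 11.4%) in the newborn type, also without overlap. Itpr1 made 0.467 to 3.81% in the adult type and 3.70 to 8.26% in the newborn type. The TCDD female pup of litter 6 was the 1 adult-type library inside the newborn-type range. Of the Itpr1 counts in that library, 12 came from the most abundant probe, and 6 and 8 from the probes that did not pass the filter. These shares rest on 320 to 682 counts per adult-type library and 557 to 1175 per newborn-type library. They are shares of probe counts. Probes bind with different efficiency and their number differs between genes, so a share is comparable between libraries but is not the share of molecules. Smooth muscle, nerve and mesenchyme markers were all lower in the adult type on the TMM scale, with sums for the 6 mesenchyme markers of 73.1 to 162 CPM in the adult type and 678 to 1014 CPM in the newborn type, and the part of such cells in the shares was not tested.

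**Figure D2:**
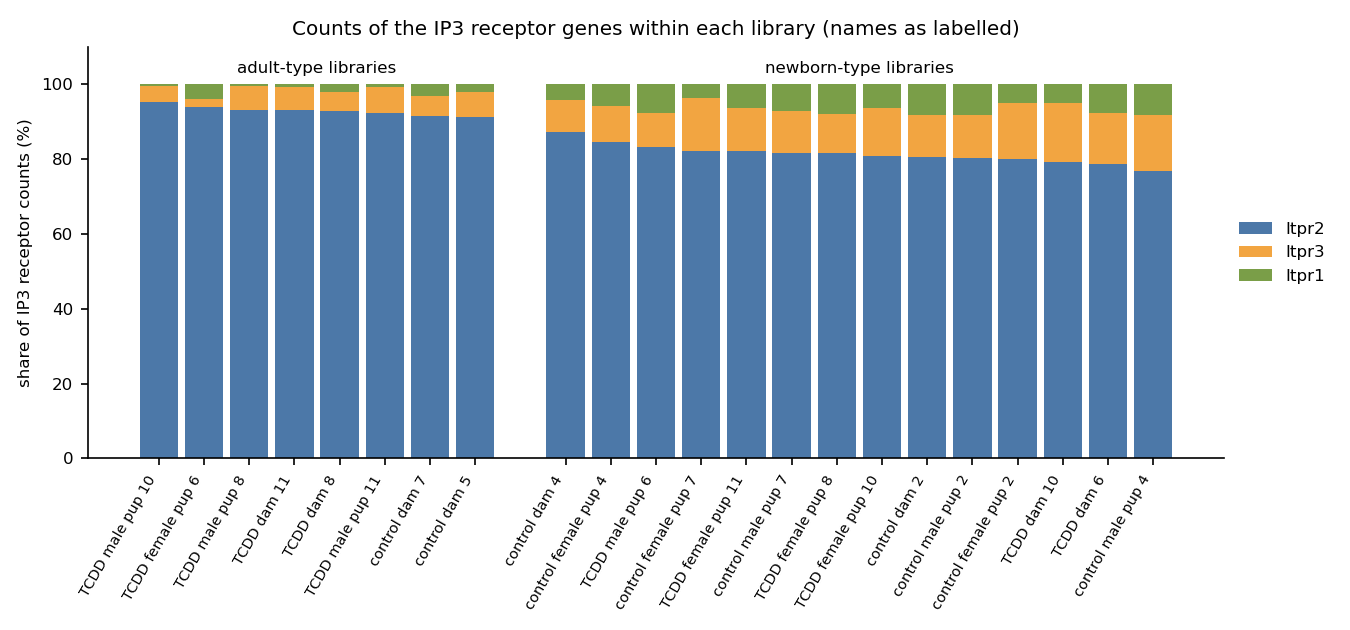
Share of IP3 receptor counts in percent that came from Itpr2, Itpr3 and Itpr1 in each library, with all probes of a gene summed. Adult-type libraries are left and newborn-type libraries right, with names as labelled. Itpr2 takes 91.4 to 95.3% in the adult type and 76.9 to 87.3% in the newborn type.

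Stim1, the calcium sensor of the endoplasmic reticulum, had a lowest, median and highest level of 3.09, 5.13 and 12.0 CPM in the adult type and 2.57, 3.58 and 4.89 CPM in the newborn type by its main probe. The classes overlapped, although 4 of the 8 adult-type libraries lay above the newborn-type range and the TCDD female pup of litter 6 stood highest. The log2 difference was 0.65, or 0.80 relative to the median; it was -1.18 with CPM of the library total and -0.06 without digestive enzymes. Its other probe did not pass the filter, with 0 to 9 counts per adult-type library and 1 to 27 per newborn-type library. Orai1, the channel that STIM1 opens, overlapped at 0.892, 1.93 and 3.50 CPM in the adult type and 1.46, 2.04 and 3.40 CPM in the newborn type. Its log2 difference was -0.17, or -0.02 relative to the median, which places it at percentile 49.2 of all probes, and it was negative under all 4 scalings. In the 14 libraries whose class matches the stage label it was 0.17, or 0.30 relative to the median. With all probes of a gene summed, there were 6.97 to 19.7 Stim1 counts per 100 Itpr2 counts in the adult type and 12.1 to 19.6 in the newborn type. Per 100 Stim1 counts there were 11.3 to 88.5 Orai1 counts in the adult type and 37.8 to 72.1 in the newborn type. Both ratios overlapped.

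The library of the TCDD female pup of litter 6 was the highest of the 8 for Chrm3 (13.2 CPM), Stim1 (12.0 CPM) and the 2 less abundant Itpr2 probes (28.5 and 7.58 CPM), and the lowest for Cckar (54.7 CPM), Chrm1 (0.614 CPM) and Itpr3 (1.64 CPM). It also had the lowest share of digestive enzyme counts in its class, 74.5%. After TMM scaling it had the lowest sums of duct markers, 44.6 CPM, and of islet markers, 249 CPM. Its TMM factor was the highest of its class (0.576), which lowers its scaled levels. With CPM of the library total it was not lowest for Cckar (31.5, class range 26.5 to 33.9) or Chrm1 (0.354, class range 0.297 to 1.28). On that scale it stayed lowest for Itpr3 (0.944) and highest for Chrm3, Stim1 and the 2 Itpr2 probes. The coefficient of variation of Stim1 was 46.4% in the adult type and 19.4% in the newborn type, against 14.7% and 10.2% from counting. For Itpr2 it was 12.8% in the adult type and 13.4% in the newborn type, against 6.85% and 5.32% from counting.

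**Figure D3:**
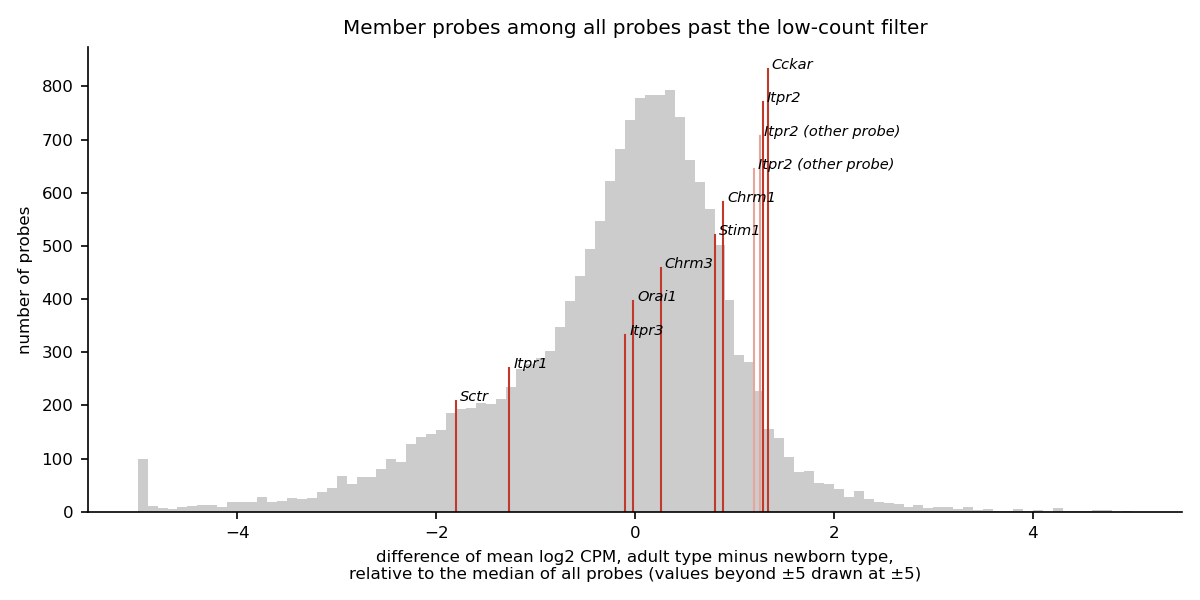
Histogram of the difference of mean log2 CPM, adult type minus newborn type, over 16760 probes relative to their median, with the 11 member probes that passed the low-count filter as lines (the most abundant probe of a gene in darker red). Cckar (1.33) and Itpr2 (1.29) lie to the right and Itpr1 (-1.26) and Sctr (-1.80) to the left, while Orai1 (-0.02) lies at the median.

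Other genes of the pathway were read from 7 lists, chosen like the members with earlier results of these data known. The counts of their genes without overlap stand against 8.85% of all probes above and 11.5% below, and no list was tested against that background. Of the 18 other secretagogue receptors 7 passed the filter, 1 with every adult-type library above, 0 below and 6 overlapping, and a median log2 difference of -0.88. The one above was Grpr, the receptor for gastrin-releasing peptide, which like Cckar is coupled to Gq. It had 6.24, 8.83 and 14.3 CPM (lowest, median and highest) in the adult type and 0.610, 0.914 and 1.502 CPM in the newborn type, a log2 difference of 3.16 that stayed positive with CPM of the library total (1.34). Of the 8 secretagogue peptides 2 passed the filter and both overlapped, with a median log2 difference of -0.63.

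Of the 23 genes for G proteins, phospholipase C and cyclic AMP, 20 passed the filter, 3 lay above, 6 below and 11 overlapped, with a median log2 difference of -0.28. Above were Gna14, a Gq-family subunit, at 1.25 to 4.10 CPM in the adult type and 0.114 to 1.03 CPM in the newborn type (log2 difference 2.14, and 0.45 on the library total). Plcb1, a phospholipase C that Gq activates, had 16.8 to 35.3 CPM in the adult type and 8.79 to 12.7 CPM in the newborn type (1.27, but -0.61 on the library total), and Prkaca, the catalytic subunit of protein kinase A, had 24.3 to 32.4 CPM and 15.04 to 23.5 CPM (0.53, but -1.35 on the library total). A second Prkaca probe overlapped, at 7.99 to 12.8 CPM and 6.45 to 9.48 CPM. Below were the adenylate cyclases Adcy2, at 0 to 0.302 CPM in the adult type and 0.800 to 3.16 CPM in the newborn type, and Adcy1, with 0 counts in all 8 adult-type libraries and 0.356 to 0.992 CPM in the newborn type. The 4 probes of Gnas, the locus of the Gs subunit that also yields other transcripts from further promoters, gave log2 differences of -5.60, -1.68, -5.63 and -0.14. All but the last of these probes lay below without overlap and the last overlapped, at 11.03 to 23.1 CPM in the adult type and 15.4 to 24.0 CPM in the newborn type, so the size of the difference depended on the probe.

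Of the 12 other genes of store-operated entry 9 passed the filter, 1 above, 1 below and 7 overlapping, with a median log2 difference of 0.01. Cracr2a, which stabilises the STIM1 and ORAI1 complex, had 2.87 to 5.09 CPM in the adult type and 0.617 to 1.88 CPM in the newborn type (log2 difference 1.47, but -0.32 on the library total), and its second probe did not pass the filter. Trpc6, a cation channel, had 0 to 1.22 CPM in the adult type and 1.25 to 2.57 CPM in the newborn type (-2.44). Of the 21 calcium pumps and other release channels 15 passed, 2 above, 2 below and 11 overlapping, with a median of -0.17. Slc8b1, the mitochondrial sodium-calcium exchanger, had 1.62 to 4.22 CPM in the adult type and 0.498 to 1.61 CPM in the newborn type (1.41, but -0.35 on the library total), and Letm1, a cation exchanger of the inner mitochondrial membrane, had 2.59 to 6.33 CPM and 0.969 to 2.15 CPM (1.35, but -0.45 on the library total). The plasma membrane calcium pumps Atp2b4, at 0 to 3.79 CPM in the adult type and 5.07 to 8.68 CPM in the newborn type, and Atp2b1, at 9.52 to 19.2 CPM and 23.4 to 31.6 CPM, lay below, although 1 of the 3 Atp2b1 probes overlapped.

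Of the 20 calcium effectors 18 passed the filter, 2 above, 2 below and 14 overlapping, with a median log2 difference of -0.06. Camk2b, a calmodulin-dependent kinase, had 2.01 to 5.24 CPM in the adult type and 0.215 to 1.47 CPM in the newborn type (2.15, and 0.39 on the library total), and Ppp3ca, the catalytic subunit of calcineurin, had 9.28 to 21.4 CPM and 4.68 to 8.67 CPM (1.003, but -0.86 on the library total). Camk2g (-0.95) and the calmodulin gene Calm2 (-0.80) lay below, although a second Camk2g probe overlapped. Of the 12 calcium-binding proteins of the secretory pathway 9 passed, 2 above, 4 below and 3 overlapping, with a median of 0.24. Nucb2, which encodes a calcium-binding protein of the secretory pathway, had 1170.4 to 2229 CPM in the adult type and 233 to 331 CPM in the newborn type (2.61, and 0.72 on the library total), and its relative Nucb1 had 75.99 to 108 CPM and 40.7 to 55.6 CPM (0.83, but -1.06 on the library total), although 1 of its 3 probes overlapped. The reticulocalbins Rcn1 (-1.09), Rcn2 (-0.96) and Rcn3 (-2.45) lay below, with negative differences under all 4 scalings, although the second Rcn3 probe overlapped.

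**Figure D4:**
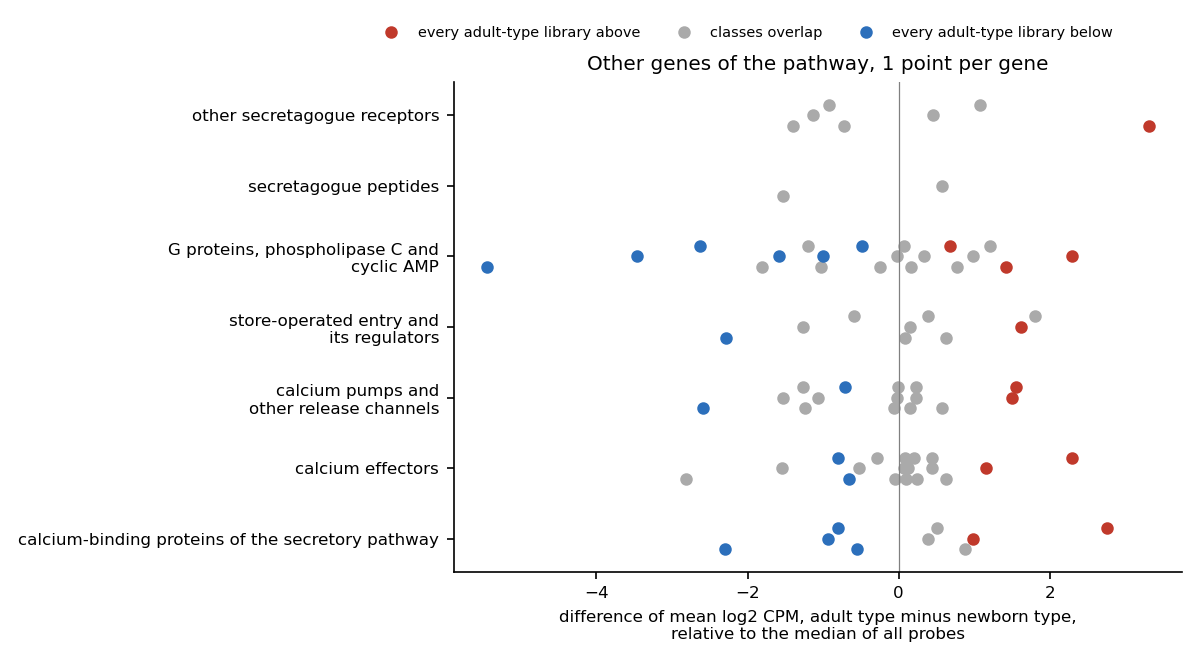
Difference of mean log2 CPM, adult type minus newborn type, relative to the median of all probes, for each gene of the 7 pathway lists that passed the low-count filter, 1 point per gene by its probe of highest mean count. Red points have every adult-type library above every newborn-type library, blue points every one below, and grey points overlap; the red point farthest right is Grpr (3.31).

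The labels ask whether TCDD changed these genes. With library class as a covariate over all 22 libraries, edgeR's quasi-likelihood test called 0 of 17676 probes at an adjusted p under 0.05 (0.0%), and 0 of the 12 member probes tested. At an unadjusted p under 0.05 there were 360 probes, and DESeq2 also called 0. Cckar averaged 70.5 ± 9.99 CPM in TCDD and 70.1 ± 15.1 CPM in control libraries of the adult type (SD, n = 6 and 2), and 29.97 ± 3.40 CPM in TCDD and 31.4 ± 3.37 CPM in control libraries of the newborn type (SD, n = 6 and 8). Its log2 fold change was -0.05 ± 0.086 (SE; edgeR, adjusted p = 1). Itpr2 averaged 29.0 ± 4.24 CPM in TCDD and 31.7 ± 0.880 CPM in control libraries of the adult type, and 14.02 ± 1.12 CPM in TCDD and 13.0 ± 2.15 CPM in control libraries of the newborn type, with a log2 fold change of 0.04 ± 0.095 (SE; edgeR, adjusted p = 1). By their most abundant probe, the other 7 genes tested had log2 fold changes between -0.30 ± 0.308 for Chrm1 and 0.12 ± 0.175 for Chrm3. Each again had an adjusted p of 1 by edgeR. The less abundant Stim1 probe, which passed the filter of this comparison, had 0.47 ± 0.436 (SE) and was not called. Cyp1a1, the usual AhR target, had few counts in any library, 0 to 29 in the 12 libraries labelled TCDD and 0 to 9 in the 10 labelled control, and so gives little check of the chemical label. All tests of TCDD take this label as given, and a wrong label in some libraries would weaken them.

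No probe was called within a class either. In the newborn type edgeR called 0 of 17109 probes, with 554 at an unadjusted p under 0.05, and in the adult type 0 of 13513, with 388, and DESeq2 called 0 in each. Itpr1 in the adult type had 0.284 to 1.23 CPM in the 6 TCDD libraries and 1.09 and 1.61 CPM in the 2 control libraries, which overlapped (log2 fold change -1.31 ± 0.845, SE, unadjusted p = 0.143 by edgeR). In the newborn type it had 1.37 to 2.51 CPM in TCDD and 0.992 to 2.94 CPM in control libraries. The difference between the 2 classes in this effect was -1.57 ± 0.649 (SE; edgeR interaction term, unadjusted p = 0.0225, adjusted p = 0.533), among 0 of 19209 probes called, 1523 at an unadjusted p under 0.05 and 23 by DESeq2, none of them a member. The adult type held only 2 control libraries, which limits what could be detected there.

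**Figure D5:**
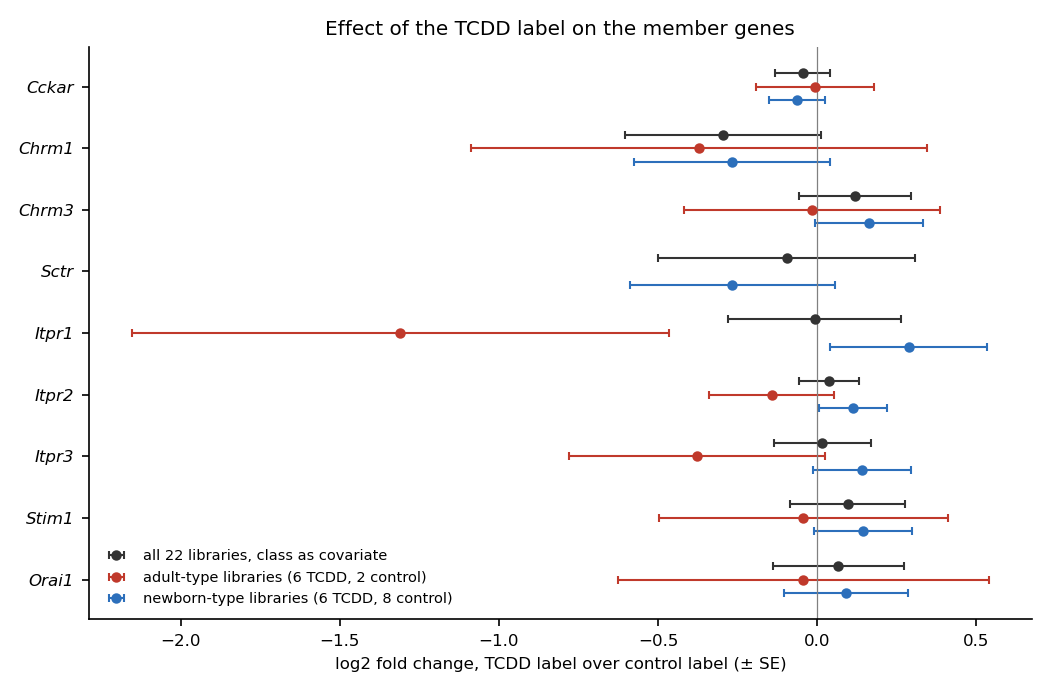
Log2 fold change of the TCDD label over the control label with its standard error for the genes tested, from all 22 libraries with class as a covariate, from adult-type libraries (6 TCDD, 2 control) and from newborn-type libraries (6 TCDD, 8 control). Sctr did not pass the filter in the adult type and was not tested there. No gene tested passed an adjusted p of 0.05, and the widest errors are those of the adult type.

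With the groups as labelled, edgeR called 0 of 15594 probes in dams (150 at an unadjusted p under 0.05), 0 of 17513 in female pups (299) and 0 of 16176 in male pups (2703). Both arms of the labelled dams mixed the classes, which widens their spread. The control dams of litters 5 and 7 and the TCDD dams of litters 8 and 11 were adult type, and the other dams newborn type. DESeq2 called 0 in dams, 0 in female pups and 513 in male pups, with 1 member among them, Itpr2 (log2 fold change 1.13, adjusted p = 0.0281 by DESeq2). Of the 4 libraries labelled TCDD male pup, those of litters 8, 10 and 11 were adult type and that of litter 6 newborn type, while the 3 control male pups were all newborn type. Itpr2 was at 30.3, 32.9 and 30.5 CPM in the TCDD male pups of litters 8, 10 and 11 and 14.6 CPM in that of litter 6, against 14.4, 12.0 and 9.88 CPM in the control male pups of litters 2, 4 and 7. Cckar was at 82.8, 63.5, 74.6 and 28.2 CPM in the same TCDD male pups, against 31.9, 29.3 and 29.7 CPM in the controls. Over all 7 libraries the log2 fold changes were 1.15 ± 0.303 for Itpr2, 1.03 ± 0.339 for Cckar, 0.81 ± 0.332 for Stim1 and -2.01 ± 0.778 for Sctr (SE; adjusted p = 0.273 to 0.285 by edgeR).

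Without the TCDD male pup of litter 6 the comparison sets 3 adult-type against 3 newborn-type libraries, and edgeR called 6451 of 15379 probes (41.9%), 2865 higher (18.6%) and 3586 lower (23.3%). It called 5 of 11 member probes, a share near that of all probes. Cckar (log2 fold change 1.28 ± 0.145, adjusted p = 7.30e-06) and 2 Itpr2 probes (1.37 ± 0.176, adjusted p = 2.30e-05, and 1.11 ± 0.219, adjusted p = 0.000959) were higher. Itpr1 (-2.72 ± 0.606, adjusted p = 0.00232) and Sctr (-2.33 ± 0.8292, adjusted p = 0.0352) were lower (SE; edgeR). In these 6 libraries the TCDD label and the library class cannot be told apart.

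Between libraries labelled dam and libraries labelled pup, with the chemical label as a covariate, edgeR called 1 of 17353 probes (0.00576%), the predicted gene Gm43218, named after its value was seen, and 0 of the 12 member probes tested; DESeq2 called 10 probes and no member. With the litter number as a fixed block in place of the chemical label, edgeR called 0 probes, as did limma with and without a litter block. Cckar had a log2 fold change of 0.45 ± 0.243, dam over pup (SE; adjusted p = 0.993 by edgeR). Itpr2 had 0.29 ± 0.251 (SE; adjusted p = 0.993 by edgeR). Each of the 2 labelled stages held 4 adult-type libraries. In the 14 libraries whose class matches the stage label, 4 adult-type dams against 10 newborn-type pups, the log2 difference was 1.28 for Cckar, 1.07 for Itpr2, -1.02 for Itpr1 and -1.74 for Sctr.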

How the data were processed

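Values are the raw read counts of each probe that the authors deposited for 22 libraries, whole numbers without scaling. Per the labels' protocols, TempO-Seq libraries of the mouse whole-transcriptome panel were run on an Illumina instrument. The submitters' processing notes name bcl2fastq 2.17.1.14; which aligner and build were used is not given in the sources used here. Reads carry no stated molecular identifier, and the 3-count floors cover counting error only. The members, classes and gene lists were chosen with earlier results of these data known.

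CPM after TMM scaling and log2 CPM (prior count 2) were computed with edgeR 4.0.16 in R 4.3.3. The low-count filter was filterByExpr, with the groups of each comparison. The probe with the highest mean count stands for a gene, except in ratios and shares of counts within a library, which sum all probes of a gene. List genes were named where the classes did not overlap and the mean count of the higher class was at least 10, up to 3 in each direction. Stimate and Septin4 were matched by an older symbol. Label comparisons used glmQLFit and glmQLFTest with Benjamini-Hochberg adjustment over all probes tested, and were tested on simulated counts with 200 probes changed. The changed probes were drawn only from those with high mean counts. This held in every comparison. In the adult type, recovery was therefore not measured at counts as low as those of Itpr1, Chrm1, Orai1, Itpr3 and Stim1. Over all libraries it was not measured at counts as low as those of Chrm1, Sctr, Itpr1 and Orai1. At a log2 change of 1.5 and of 3, the test recovered 100% and 100% over all libraries (17676 probes), and 81% and 100% in the adult type (13513). In the labelled groups it recovered 27% and 87% in dams (15594), 45% and 94% in female pups (17513), and 35% and 92% in male pups (16176). Alternatives were DESeq2 1.42.0, RLE factors, no filter, limma 3.58.1 with and (chosen after the data were seen) without a litter block, and each library left out in turn. Replicates are separate animals, so p-values measure the spread between animals. Only dams were dosed, and a dam and her pups share an exposure. Except where a litter block is named, tests that pool dams and pups treat animals of a litter as independent. Promoter letters are from RefSeq, GRCm38.p6. The number in a label was taken as the litter. TCDD and control libraries have different numbers, so for the TCDD label it could enter only as a random effect (limma-voom), and for dam against pup also as a fixed block. Its consensus correlations were 0.0143 over all libraries, 0.0129 in the newborn type, 0.0706 in the adult type and -0.0927 for dam against pup, none over 0.1. The number comes from the same labels whose stage conflicts with the counts in 8 libraries. It may be wrong there too, so these values cannot show that litter matters little.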

Additional observations from a re-analysis of the deposited data

Results flagged for a closer look

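Values are CPM after TMM scaling, and each result below is a library farther from the rest of its group than Dixon's 95% critical value allows. Of 63 gene and group pairs tested 11 met this rule, and chance flags about 1 in 20. In the labelled TCDD female pups, the library of litter 6, the 1 adult-type library of the 4, was highest for Cckar (54.7, against 26.1 to 30.02), Itpr2 (29.5, against 13.8 to 15.3) and Stim1 (12.0, against 3.41 to 3.79), and lowest for Sctr (0, against 0.899 to 0.980). In the labelled TCDD male pups, the library of litter 6, the 1 newborn-type library of the 4, was highest for Itpr1 (2.51, against 0.284 to 0.297) and lowest for Itpr2 (14.6, against 30.3 to 32.9).

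In the labelled TCDD dams, Chrm1 was at 2.59 in litter 8 and 0.756 to 0.826 in the others. In the labelled control dams, Stim1 was at 7.77 in litter 7 and 4.32 to 4.69 in the others. Within a class and chemical label, Itpr2 was lowest in the TCDD dam of litter 11 (20.7, against 29.5 to 32.9 in the other adult-type TCDD libraries). Orai1 was highest in the control dam of litter 4 (3.40, against 1.46 to 2.28 in the other newborn-type control libraries). Stim1 was highest in the TCDD male pup of litter 6 (4.89, against 3.41 to 3.79 in the other newborn-type TCDD libraries).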

How the results depend on the processing

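Between the classes, 2 genes lay above and 0 below with TMM, 0 above and 5 below with CPM of the library total, 1 above without digestive enzymes in the total, and 1 below without the 2 adult-type libraries with over 20000 probes detected. The log2 differences of Cckar (-0.70) and Itpr2 (-0.74) were reversed on the library total. With each library left out in turn the counts stayed at 2 above and 0 below, Cckar between 1.15 and 1.23 and Itpr2 between 1.11 and 1.21.

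For the TCDD label with class as a covariate, leaving out 1 library gave 0 to 1 calls (1, Igha, without the control dam of litter 5, named after its value was seen) and no member. Fold changes near 0 changed sign: Itpr3 between -0.042 and 0.10, Orai1 between -0.019 and 0.19, Sctr between -0.19 and 0.088, and Itpr1 between -0.10 and 0.16. In the libraries whose class fits the stage label, Itpr3 was -0.088, Sctr 0.016 and Itpr1 0.15. Itpr1 was 0.32 by limma-voom with the litter as a replicate block and 0.31 without the block, so the block itself moved it little. Dam against pup called 0 probes in place of 1 with that replicate block, without it, and with the litter as a fixed block in edgeR; no member was called. The last 2 settings were chosen after the data were seen. No paired analysis was possible within dams, female pups or male pups because each litter number occurs there once.

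In the adult type, 112 probes were called with no filter and 0 to 2 with 1 library left out (2, Glycam1 and Dnase1l3, without the control dam of litter 5), none a member. The interaction called 23 probes with DESeq2 and 9 with no filter. Labelled male pups gave 513 probes and 1 member with DESeq2, and 0 to 6451 probes and 0 to 5 members with 1 library left out. Dam against pup called 10 probes with DESeq2 and 9 with no filter. Counts limit Sctr, Vipr1, Itpr1 and Chrm1, whose adult-type libraries held at most 20 counts.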

Other observations

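The summed levels of immune cell markers, after TMM scaling, varied within the adult type. The lymphocyte markers summed to 0.147 to 74.7 CPM in the 8 adult-type libraries, with 74.7 CPM in the control dam of litter 7 and 30.4 CPM in the TCDD dam of litter 8, and to 3.08 to 12.6 CPM in the newborn type. Adipocyte markers summed to 11.9 to 135 CPM in the adult type, highest in the TCDD dam of litter 8, and to 10.6 to 18.5 CPM in the newborn type. Only 1 of the 5 adipocyte markers and 3 of the 6 intestine markers passed the low-count filter. Liver markers summed to 7.43 to 38.3 CPM in the adult type and 209 to 619 CPM in the newborn type, and intestine markers to 0.883 to 3.99 CPM and 17.6 to 249.98 CPM, with the control male pup of litter 4 highest. Islet markers summed to 249 to 699 CPM in the adult type and 771 to 1538 CPM in the newborn type. Pdx1 was at 0 in all libraries, and whether its probe reads the transcript was not tested. Endothelial markers summed to 7.41 to 21.4 CPM and 22.01 to 38.8 CPM, and macrophage and neutrophil markers to 7.51 to 46.0 CPM and 34.8 to 86.3 CPM. None of these sums was tested against the members.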
